A study of Schizosaccharomyces pombe with 2 samples.

Results

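Poly(A) site reads were described at pho1, pho84 and tgp1, the 3 genes of the fission yeast phosphate regulon that each lie downstream of a long non-coding RNA (lncRNA) on the same strand. The members were taken by symbol, 3 of 12606 annotated genes and 3 of 5113 coding genes. The reads of each were read position by position from 3000 nt before its annotated start to 1000 nt past its annotated end. Polyadenylated 3′ ends of total RNA from Schizosaccharomyces pombe were sequenced in 2 libraries. One library came from nmt1-SEB1, where seb1 is placed under the thiamine-repressible nmt1 promoter, and the other from a wild-type strain. Thiamine was present in the minimal medium of both cultures. The labels name the nmt1-SEB1 strain a knock-out in some places and a knockdown in another, and only its promoter name is used below. Each group is 1 library, so nothing here has a replicate check: each difference below is between 2 libraries, no p-value is given, and every interval covers counting error only.

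Fission yeast takes up and scavenges phosphate with a small set of proteins that are made when phosphate is scarce. Pho1 is a secreted acid phosphatase, Pho84 is a plasma membrane transporter of inorganic phosphate, and Tgp1 is a plasma membrane transporter of glycerophosphodiesters. The zinc-finger factor Pho7 is known to bind their promoters. In phosphate-rich cells, transcription of the upstream lncRNA across each promoter is known to keep the gene low, and where the lncRNA ends is known to depend on cleavage and polyadenylation factors and on inositol pyrophosphates. Seb1 is an RNA-binding protein that travels with RNA polymerase II and takes part in 3′ end formation. A poly(A) site read marks where a transcript ends and not where it starts, so an lncRNA that runs to the site of the coding gene is counted with that gene's mRNA.

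The nmt1-SEB1 library held 3376142 reads and the wild-type library 2702105 reads, and 1 read was worth 0.301 RPM (reads per 1000000 gene-assigned reads) in nmt1-SEB1 and 0.372 RPM in wild type. The reads lay at 213060 positions in nmt1-SEB1 against 114578 in wild type, and with the nuclear reads of nmt1-SEB1 thinned to the wild-type number 190728 nuclear positions remained, against 114474. The targeted gene seb1 had 826 reads in nmt1-SEB1 against 1848 in wild type, a ratio of RPM of 0.362 (95% interval 0.333 to 0.393). The call rule for a gene needed 20 or more reads over both libraries, a ratio of at least 2 (higher) or at most 0.5 (lower), and an exact binomial interval without 1. Scaling by the trimmed mean of M values (TMM) or by median of ratios moved every log2 ratio by -0.68 or -0.79. Ratios near 1 therefore depend on the scaling, whereas shares of reads within a locus do not. In RNA from a whole culture, fewer cells that make a transcript and less of it per cell cannot be told apart.

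At pho84 the ends of the gene held fewer reads in nmt1-SEB1, and a larger share of the reads of the locus ended before the gene. The locus lies on chromosome II, plus strand: the lncRNA prt2 is annotated from 4442542 to 4445970 and pho84 (SPBC8E4.01C) from 4444101 to 4446200, with its coding sequence from 4444252 to 4445970. The 1559 nt from the start of prt2 to the start of pho84 held 1511 reads in nmt1-SEB1 against 763 in wild type. The stretch past the stop codon of pho84 held 242 reads in nmt1-SEB1 against 2030 in wild type. Of the reads in both stretches, 86.2% ended before pho84 in nmt1-SEB1 (Wilson 95% interval 84.5 to 87.7%), against 27.3% in wild type (25.7 to 29.0%). The difference was 58.9 points. Among 95 pairs of an lncRNA and a coding gene laid out in the same way, 15.8% had a share at least 10 points higher and 7.37% a share at least 10 points lower in nmt1-SEB1, with a median difference of 0.62 points.

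**Figure D1:**
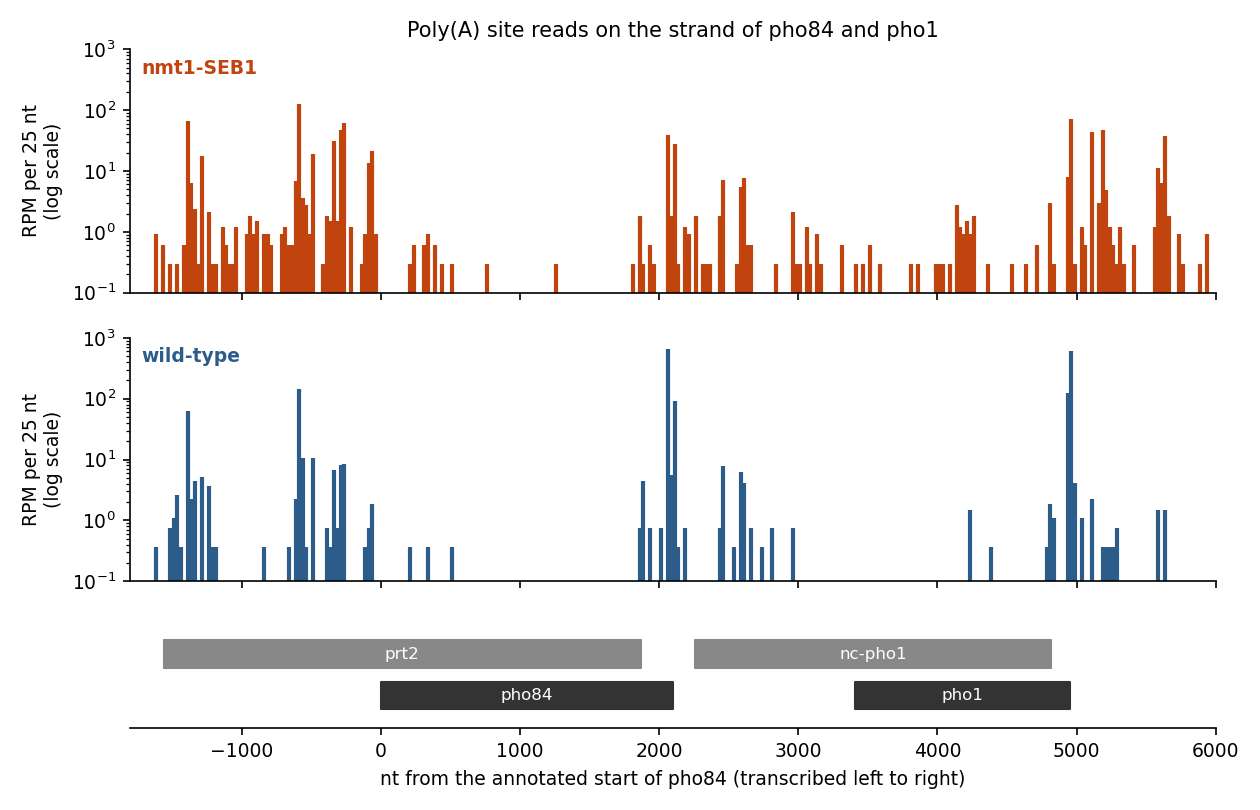
Reads in RPM per 25 nt on a log axis, nmt1-SEB1 above and wild type below, over the tandem prt2, pho84, nc-pho1 and pho1 locus, in nt from the annotated start of pho84; grey bars are the lncRNAs and black bars the coding genes. In nmt1-SEB1 the main peaks in the last 400 nt before pho84 are taller, the peaks at the ends of pho84 and pho1 are lower, and the peaks past the end of pho1 are taller.

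In abundance, pho84 had 72.9 RPM in nmt1-SEB1 against 755 RPM in wild type, a log2 ratio of -3.37 (ratio 0.0966, 95% interval 0.0842 to 0.110). With lncRNA annotations ignored it was -2.75, since pho84 then also took the reads inside the gene and, past its end, 102 reads in nmt1-SEB1 against 59 in wild type that otherwise belong to nc-pho1, the lncRNA of pho1. Of 4701 coding genes tested, 26.0% were called higher and 17.0% lower in nmt1-SEB1, and their median log2 ratio was 0.20. The reads of prt2 before pho84 came to 455 RPM in nmt1-SEB1 against 284 RPM in wild type, a ratio of 1.60 (1.47 to 1.75) and a log2 ratio of 0.68. That ratio was below the 2-fold call, and it became -0.00060 with TMM and -0.11 with median of ratios. Over 49 such stretches before a coding gene, 40.8% were called higher and 8.16% lower in nmt1-SEB1. Of 2840 lncRNAs tested as genes, 79.9% were called higher and 3.27% lower, and prt2 with 1527 assigned reads in nmt1-SEB1 against 766 in wild type was not called. The reads of pho84 were lower at every scaling tried, while the direction for prt2 depends on the scaling.

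Within prt2 the ends moved towards pho84. The sites that carry this shift are shown with the 30 bases up to each end on the transcribed strand of the genome, read from the RefSeq sequence of the reference assembly (ASM294v3). No AATAAA or AATGAA poly(A) signal stands in the 50 nt before any of them, so no base is in capitals.
prt2 site 1386 nt before pho84: taattagtttccacggtcttttcttgaaaa
prt2 site 600 nt before pho84: taatgacatactgatttttattttcgcaaa
prt2 site 338 nt before pho84: taaaccaaattgacccattactttccctca
prt2 site 264 nt before pho84: aattgttaatatttttttactattttttta
prt2 site 63 nt before pho84: cttaattattaattttttttctataacaaa
Reads were gathered into clusters of all positions within 24 nt of a peak. The 2 sites far from pho84 were the main ends of prt2 in wild type. The site at 4442715, 1386 nt before pho84, had 223 reads in nmt1-SEB1 against 168 in wild type, a ratio of RPM of 1.08 (0.876 to 1.32). The site at 4443501, 600 nt before pho84, had 445 reads in nmt1-SEB1 against 401 in wild type, a ratio of 0.899 (0.784 to 1.03). Neither ratio differed from 1 beyond its counting interval. As a share of the prt2 stretch, the site at 600 nt held 29.5% of reads in nmt1-SEB1 (27.2 to 31.8%), against 52.6% in wild type (49.0 to 56.1%).

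The 3 sites close to pho84 each held more reads in nmt1-SEB1, by more than the scaling shifts given above. Clusters were found on both libraries together, and these 3 reached 5% of the window's reads in nmt1-SEB1 alone. Their direction was therefore partly set by the choice of sites, and their ratios may be too large. At 4443763, 338 nt before pho84, 103 reads ended in nmt1-SEB1 against 19 in wild type, a ratio of 4.39 (2.67 to 7.59). At 4443837, 264 nt before pho84, 362 reads ended in nmt1-SEB1 against 45 in wild type, a ratio of 6.52 (4.77 to 9.09). At 4444038, 63 nt before pho84, 108 reads ended in nmt1-SEB1 against 6 in wild type, a ratio of 14.6 (6.49 to 40.6). The intervals of neighbouring sites overlap, and an order among the 3 ratios was not tested. As a share of the prt2 stretch, the site at 264 nt took between 21.9 and 26.2% in nmt1-SEB1 by its Wilson interval, and between 4.44 and 7.80% in wild type.

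Smaller prt2 clusters lay between these sites. The cluster 1284 nt before pho84 had 58 reads in nmt1-SEB1 against 14 in wild type, and the one 500 nt before it had 65 in nmt1-SEB1 against 29 in wild type. The cluster 1353 nt before pho84 had 29 reads in nmt1-SEB1 against 18 in wild type. The cluster 563 nt before pho84 went the other way, with 14 reads in nmt1-SEB1 against 29 in wild type. The mean end of the prt2 reads lay 933 nt from the start of prt2 in nmt1-SEB1 against 767 nt in wild type, 166 nt further downstream. Among the 20 lncRNA and coding gene pairs with enough reads, 45.0% moved at least 20 nt downstream and 35.0% at least 20 nt upstream, so a shift in either direction was common. In the last 400 nt before pho84, a stretch chosen after the values had been seen, 607 of 1511 prt2 reads ended in nmt1-SEB1, or 40.2% (37.7 to 42.7%). In wild type 76 of 763 ended there, or 9.96% (8.03 to 12.3%).

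Reads that end inside the coding sequence of pho84 were few, 16 in nmt1-SEB1 against 3 in wild type, a ratio of 4.32 (1.24 to 23.1), and stayed under the 20 reads a call needs. No read of either library ended in the annotated 5′ UTR. Past the stop codon pho84 has 2 main sites, close to each other. Both are shown with 30 bases on the plus strand, and the capitals mark the poly(A) signal AATAAA, which 32.0% of 3672 main clusters of coding genes have (or AATGAA) in the 50 nt up to the end.
pho84 site 184 nt past the stop codon: gctttAATAAAaggggacagttttcggtta
pho84 site 236 nt past the stop codon: ttAATAAAaattttaaaattgacgaaataa
The first site, at 4446154, had 130 reads in nmt1-SEB1 against 1750 in wild type. The second, at 4446206, had 95 reads in nmt1-SEB1 against 259 in wild type. Both sites were lower in nmt1-SEB1, with ratios of 0.0602 at the first site and 0.297 at the second. The second site took 42.2% of the pair in nmt1-SEB1 (36.0 to 48.8%), against 12.9% in wild type (11.5 to 14.4%). That is 29.3 points, where 63.4% of 2949 coding genes had a distal share at least 10 points higher and 92 of the 2949 had one at least 10 points lower, with a median difference of 25.4 points. The mean end of pho84 lay 204 nt past the stop codon in nmt1-SEB1 against 190 nt in wild type. These 13.8 nt are below the 20 nt used as a call, which 74.3% of 3672 coding genes passed downstream and 2.83% upstream. The stretch measured ends 158 nt past the annotated end of pho84, where the lncRNA of pho1 starts.

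At pho1 the main site held fewer reads in nmt1-SEB1 and a series of sites further downstream held more. pho1 (SPBP4G3.02) lies on chromosome II from 4447506 to 4449053, plus strand, with its coding sequence from 4447557 to 4448918. It follows pho84 in tandem, and the lncRNA nc-pho1 (also named prt) is annotated from 4446359, between the genes, to 4448918, the last base of the pho1 coding sequence. The 4 sites that carry most pho1 reads are shown, with AATAAA in capitals where it stands in the 30 bases. The site at 366 nt has an AATAAA that starts 34 nt before its end, outside the bases shown, and the first and second sites have no AATAAA or AATGAA in the 50 nt before them.
pho1 site 135 nt past the stop codon: tttaatagattgattttttaaaccctataa
pho1 site 301 nt past the stop codon: ttaataagcagtccgctttcttactttaaa
pho1 site 366 nt past the stop codon: aaagcaaacttcaacctttggttcaacata
pho1 site 822 nt past the stop codon: aAATAAAaagatgcatttaagttctacata
The site at 4449053 is the annotated end of the gene. It held 260 of 810 pho1 reads in nmt1-SEB1, or 32.1% (29.0 to 35.4%), against 1989 of 2031 in wild type, or 97.9% (97.2 to 98.5%). In nmt1-SEB1 the 4 sites held between 17.7 and 32.1% each, where in wild type pho1 had 1 dominant end.

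Each of the 3 further sites was close to empty in wild type. Clusters were found on both libraries together, and these 3 reached 5% of the window's reads in nmt1-SEB1 alone. A higher count there was therefore partly set by the choice of sites. At 4449219, 301 nt past the stop codon, 143 reads ended in nmt1-SEB1 against 6 in wild type, or 17.7% in nmt1-SEB1 against 0.295% in wild type of pho1 reads. At 4449284, 366 nt past the stop codon, 164 reads ended in nmt1-SEB1 against 1 in wild type, or 20.2% in nmt1-SEB1 against 0.0492% in wild type. At 4449740, 822 nt past the stop codon, 146 reads ended in nmt1-SEB1 against 4 in wild type, or 18.0% in nmt1-SEB1 against 0.197% in wild type. A smaller cluster at 766 nt had 41 reads in nmt1-SEB1 against 4 in wild type. The distal share of the pair at 135 and 366 nt was 38.7% in nmt1-SEB1 (34.2 to 43.4%) against 0.0503% in wild type (0.00887 to 0.284%). With cluster peaks placed on wild type alone the pair became 135 and 301 nt. The site at 301 nt still reached the 5% minimum in nmt1-SEB1 alone, so this pair was not chosen free of nmt1-SEB1. The share was then 35.5% in nmt1-SEB1 (31.0 to 40.3%) against 0.301% in wild type (0.138 to 0.655%).

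Reads more than 200 nt past the main pho1 cluster numbered 394 of 810 in nmt1-SEB1, or 48.6% (45.2 to 52.1%), and 14 of 2031 in wild type, or 0.689% (0.411 to 1.15%). The difference was 48.0 points, and 31.5% of 3672 coding genes had a share at least 10 points higher and 0.735% at least 10 points lower, with a median of 2.41 points. Counted from 100 nt past the cluster the pho1 difference was 65.6 points, and from 300 nt it was 25.3 points. The mean end of pho1 lay 390 nt past the stop codon in nmt1-SEB1 against 138 nt in wild type, 251 nt further downstream, where the median coding gene moved by 65.9 nt. No other gene is annotated within 1000 nt past the end of pho1. GTA, in RNA the GUA that Seb1 is known to bind, stands once in the 100 nt after the pho84 site at 184 nt and 3 times after the one at 236 nt, and in 90.4% of such windows after main clusters of coding genes. The longer TGTA stands 3 times in the 100 nt after the main pho1 site, first at 19 nt, and in 62.3% of such windows. No TGTA stands in the 100 nt after either pho84 site, or after the main tgp1 site, 354 nt past its stop codon. A match is a description of these letters only.

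**Figure D2:**
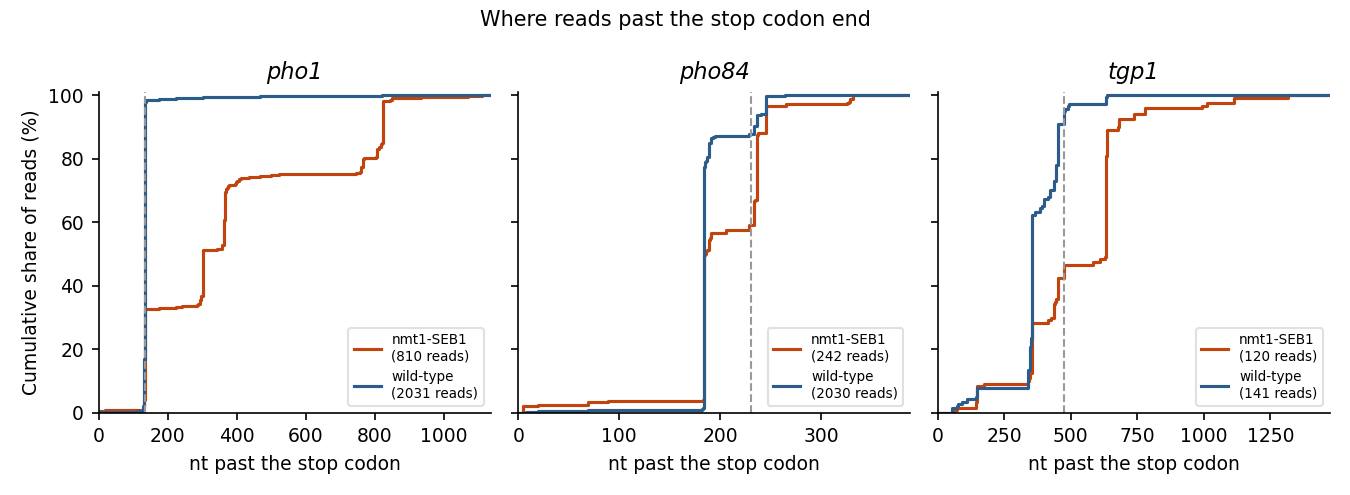
Cumulative share of reads past the stop codon (%) against nt past the stop codon for pho1, pho84 and tgp1, nmt1-SEB1 in orange and wild type in blue, with the annotated gene end as a dashed line. For pho1 the wild-type curve reaches 97.9% at the main site, and the nmt1-SEB1 curve climbs in steps up to the site 822 nt past the stop codon.

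Despite the added distal sites, all pho1 reads together were lower: 244 RPM in nmt1-SEB1 against 755 RPM in wild type, a log2 ratio of -1.63 (ratio 0.323, 95% interval 0.297 to 0.351). The annotated 3′ UTR held 266 reads in nmt1-SEB1 against 1988 in wild type, a ratio of 0.108, and the 1000 nt past the annotated end held 544 in nmt1-SEB1 against 43 in wild type, a ratio of 10.2 (7.51 to 14.3). Counting reads only up to 200 nt past the end gave a log2 ratio of -2.45. Inside the coding sequence 50 reads ended in nmt1-SEB1 against 7 in wild type, a ratio of 5.79 (2.61 to 15.1), and no single position there held more than 4 of them in either library.

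The lncRNA before pho1 differed less. The 1147 nt from the start of nc-pho1 to the start of pho1 held 108 reads in nmt1-SEB1 against 59 in wild type, or 32.5 RPM in nmt1-SEB1 against 21.9 RPM in wild type. The ratio was 1.48 (1.07 to 2.07) and the log2 ratio 0.57, below the 2-fold call, and its sign flipped to -0.11 with TMM and -0.22 with median of ratios. Its 2 largest clusters, found on both libraries together, peaked 949 nt before pho1, with 30 reads in nmt1-SEB1 against 23 in wild type, and 796 nt before pho1, with 43 in nmt1-SEB1 against 25 in wild type. Of the reads in nc-pho1 and past the stop codon of pho1, 11.8% ended before the gene in nmt1-SEB1 (9.84 to 14.0%) against 2.82% in wild type (2.19 to 3.62%). This difference of 8.94 points stayed under the 10 points used as a call, though the intervals did not overlap. The mean end of nc-pho1 lay 366 nt from its start in nmt1-SEB1 against 307 nt in wild type, 58.9 nt further downstream. In the last 400 nt before pho1 12 of 108 reads ended in nmt1-SEB1, or 11.1%, and 0 of 59 in wild type, which allows a share of up to 6.11% by the Wilson interval.

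The whole 3000 nt before pho1 held 356 reads in nmt1-SEB1 against 2090 in wild type, a log2 ratio of -2.86, but reads of pho84 made up 242 of these in nmt1-SEB1 against 2030 in wild type. With a window of 1000 nt, which leaves out the end of pho84, the log2 ratio was 0.44. Among 4492 coding genes 43.3% were called higher and 10.7% lower in this 3000 nt window. Leaving out reads assigned to coding genes, 78.6% of 2196 windows were called higher and 3.51% lower. The window before pho84 has no such neighbour: 1516 reads fell there in nmt1-SEB1 against 765 in wild type, nearly all in prt2. The window before tgp1 held 91 reads in nmt1-SEB1 against 170 in wild type, a log2 ratio of -1.21, all in its lncRNA, and -2.60 with a window of 1000 nt.

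At tgp1 the reads of the lncRNA were lower in nmt1-SEB1, and its ends lay further from the gene. tgp1 (SPBC1271.09) lies on chromosome II from 350310 to 352411, minus strand, with its coding sequence from 350783 to 352369, and its lncRNA nc-tgp1 from 352335 to 354234. The 1823 nt from the start of nc-tgp1 to the start of tgp1 held 91 reads in nmt1-SEB1 against 170 in wild type, or 27.4 RPM in nmt1-SEB1 against 63.2 RPM in wild type. The ratio was 0.434 (0.332 to 0.563), called lower, and the log2 ratio of -1.21 became -1.89 with TMM and -1.99 with median of ratios. Most of the difference lay at 1 site, 188 nt before tgp1. The 2 sites of nc-tgp1 that lie further from the gene are shown on the minus strand.
nc-tgp1 site 1316 nt before tgp1: tatctctttaatatacattgttacacaaaa
nc-tgp1 site 1144 nt before tgp1: catagttttacgaagtgaaatttttttaaa
The site 188 nt before tgp1 held 2 of 91 reads in nmt1-SEB1, or 2.20% (0.605 to 7.66%), against 82 of 170 in wild type, or 48.2% (40.8 to 55.7%). The ratio of RPM was 0.0198 (0.00235 to 0.0737). This site held 26.3% of the window's reads in wild type against 0.877% in nmt1-SEB1. It passed the minimum share for a site in wild type alone. Its lower count was therefore partly set by the choice of sites, and its ratio may be too small. Of the 82 wild-type reads, 80 ended at 1 position, and copies of a molecule made by PCR cannot be told apart from separate molecules in these counts.

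The other ends of nc-tgp1 differed less. The site at 353727 had 29 reads in nmt1-SEB1 against 43 in wild type, and the site at 353555 had 22 in nmt1-SEB1 against 24 in wild type. Without the site at 188 nt, nc-tgp1 had 89 reads in nmt1-SEB1 against 88 in wild type, a ratio of 0.819 (0.603 to 1.11) and a log2 ratio of -0.29, before the scaling shifts that would lower it. The mean end of nc-tgp1 lay 712 nt from its start in nmt1-SEB1 against 1138 nt in wild type, 426 nt further upstream. Without that site it lay at 691 nt in nmt1-SEB1 against 674 nt in wild type. Of the reads in nc-tgp1 and past the stop codon of tgp1, 43.1% ended before the gene in nmt1-SEB1 (36.6 to 49.9%) against 54.7% in wild type (49.1 to 60.1%), and these intervals overlap. Without the site at 188 nt the shares were 42.6% in nmt1-SEB1 against 38.4% in wild type.

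**Figure D3:**
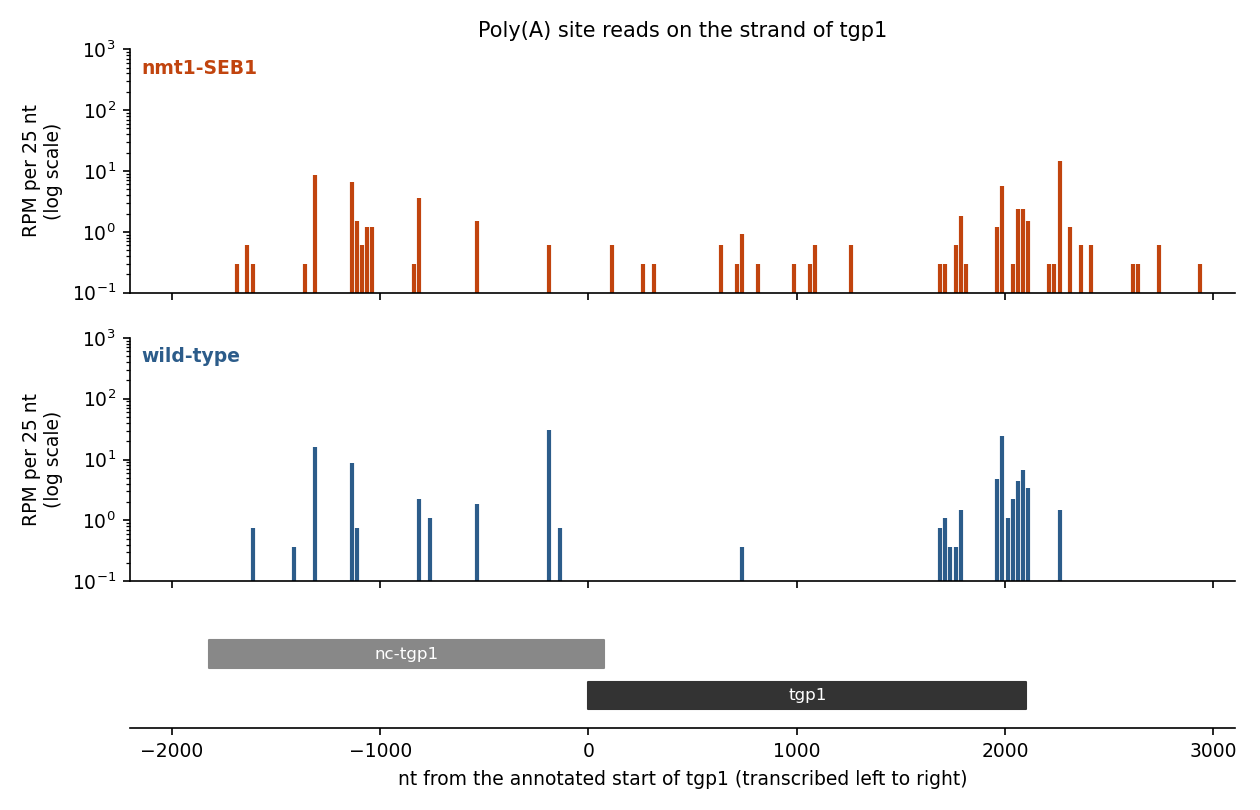
Reads in RPM per 25 nt on a log axis, nmt1-SEB1 above and wild type below, over nc-tgp1 and tgp1 in nt from the annotated start of tgp1, both transcribed left to right. The wild-type peak of 82 reads at 188 nt before tgp1 has 2 reads in nmt1-SEB1, and the tallest nmt1-SEB1 peak of tgp1 stands past its annotated end.

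The tgp1 mRNA ends moved downstream, and whether its reads were called lower depended on the scaling. tgp1 had 137 assigned reads in nmt1-SEB1 against 142 in wild type, or 41.3 RPM in nmt1-SEB1 against 52.8 RPM in wild type, a log2 ratio of -0.36 (ratio 0.782, 0.614 to 0.995). This was not called, but with TMM (-1.04) and median of ratios (-1.14) the log2 ratio passed the 2-fold call for lower. The 3 sites past the stop codon are shown on the minus strand, with AATAAA in capitals.
tgp1 site 354 nt past the stop codon: aactgatcttttgctaccttttcgtcttca
tgp1 site 451 nt past the stop codon: tattagttgcttaatgtgtttactgttaaa
tgp1 site 631 nt past the stop codon: ataaaaaAATAAAaacttttttcactataa
The first site, at 350429, held 23 of 120 reads past the stop codon in nmt1-SEB1 and 78 of 141 in wild type, or 19.2% in nmt1-SEB1 against 55.3% in wild type. The second, at 350332, held 20 reads in nmt1-SEB1 against 35 in wild type. The last, at 350152, lies past the annotated end and held 50 reads in nmt1-SEB1 against 4 in wild type, or 41.7% in nmt1-SEB1 against 2.84% in wild type. This last site reached 5% of the window's reads in nmt1-SEB1 alone, so its higher count was partly set by the choice of sites. Of these 3 tgp1 sites only the last has an AATAAA signal. Both pho84 sites past the stop codon have AATAAA and held fewer reads in nmt1-SEB1. The pho1 sites at 366 and 822 nt have it and held more. A link between the signal and use of a site was not tested.

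The distal share of tgp1, its site at 631 nt against its site at 354 nt, was 68.5% in nmt1-SEB1 (57.1 to 78.0%) against 4.88% in wild type (1.91 to 11.9%), a difference of 63.6 points. With clusters chosen on wild type alone the pair became the first and second sites, and the share was 46.5% in nmt1-SEB1 (32.5 to 61.1%) against 31.0% in wild type (23.2 to 40.0%), intervals that overlap. With clusters of 50 nt the same pair gave 48.9% in nmt1-SEB1 against 33.3% in wild type, again with overlapping intervals. The shift of tgp1 therefore rests on its site at 631 nt. Ends lying over 200 nt beyond the main cluster were 53.3% of tgp1 reads in nmt1-SEB1 (44.4 to 62.0%) against 2.84% in wild type (1.11 to 7.07%). This difference of 50.5 points was 10.8 points when counted from 300 nt, since the site at 631 nt lies short of that distance. The mean end lay 524 nt past the stop codon in nmt1-SEB1 against 372 nt in wild type, 152 nt further downstream. Inside the coding sequence 17 reads ended in nmt1-SEB1 against 1 in wild type, a ratio of 13.8 (2.16 to 576), again under the 20 reads a call needs.

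**Figure D4:**
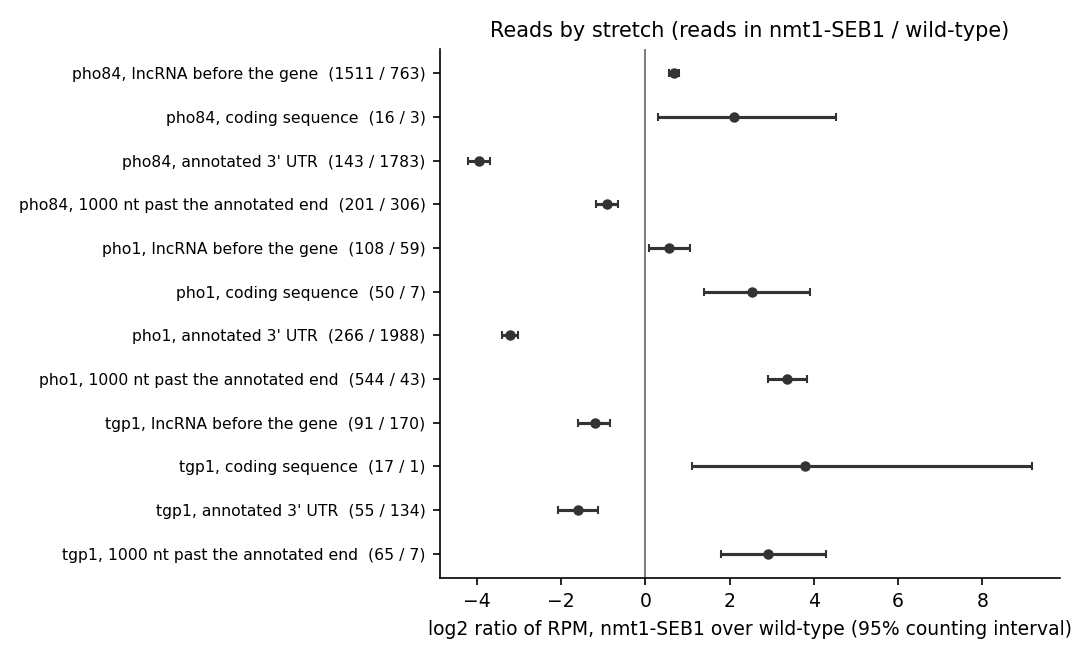
Log2 ratio of RPM, nmt1-SEB1 over wild type, for the stretches of each locus with the 95% counting interval; read numbers of nmt1-SEB1 and then wild type stand in each label. The annotated 3′ UTR lies below 0 for all 3 genes and the coding sequence above 0, whereas the lncRNA stretch lies above 0 before pho84 and pho1 and below 0 before tgp1 at this scaling.

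Set side by side, the 3 loci shared some differences and not others. The annotated 3′ UTR was called lower in nmt1-SEB1 at all 3, with ratios of 0.0650 at pho84, 0.108 at pho1 and 0.332 at tgp1. Of 3687 coding genes with enough reads there, 37.2% were called lower and 10.1% higher, with a median log2 ratio of -0.55. The coding sequence was called higher at pho1, the only one of the 3 with enough reads for a call. Of 1161 coding genes with enough reads there, 32.4% were called higher and 22.5% lower. The distal share was called higher by at least 10 points in the 3 genes, as it was in 63.4% of genes tested. For tgp1 the call rests on its site at 631 nt. With clusters chosen on wild type alone or clusters of 50 nt, the tgp1 intervals overlapped. The share of reads ending before the gene was called higher at pho84 alone, by the 10-point rule. The 3000 nt before each gene also carry TNAAAC, the motif bound by the RNA-elimination factor Mmi1, searched on the transcribed strand with N as any base. pho1 has 7 copies, pho84 has 9 and tgp1 has 6, against a median of 6 over coding genes, and 40.3%, 16.4% and 56.0% of coding genes have as many or more. Each of the 3 windows has 3 copies within 100 nt, which 8.92% of 5112 windows have. A 30-base stretch from each lncRNA is shown, with the TNAAAC copies in capitals.
nc-pho1 stretch 749 to 720 nt before pho1: TTAAACcttttgagTTAAACtgaaagctga
prt2 stretch 746 to 717 nt before pho84: TGAAACcggccgattactggtttTAAAACa
nc-tgp1 stretch 1003 to 974 nt before tgp1: TCAAACaaccccctTAAAACtatcTCAAAC

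The promoters were searched for the Pho7 pattern, which is TCG, 4 free bases, TT, any base and AA, on both strands from 250 nt before to 50 nt after the start. pho1 has 2 matches and tgp1 has 1, all on the transcribed strand, and pho84 has none in this window. Of 5113 promoters of coding genes, 6.65% have at least 1 match and 0.293% at least 2. The pho1 matches are shown in capitals at the end of 30 bases.
pho1 match 187 to 176 nt before the start: tgaacaacaggggaatagTCGCTGCTTGAA
pho1 match 155 to 144 nt before the start: atccggaaatagttttatTCGGAAATTAAA
At pho1 the nearer of the 2 largest clusters of nc-pho1 peaks 796 nt before the start, upstream of both matches.

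The opposite strand differed by locus. Over the pho1 window 5 antisense reads were found in nmt1-SEB1 against 5 in wild type. Over the pho84 window there were 73 in nmt1-SEB1 against 11 in wild type, a ratio of 5.38 (2.84 to 11.2). Of 4954 coding genes, 45.8% were called higher and 6.94% lower in antisense reads. Of these, 65 in nmt1-SEB1 against 5 in wild type were assigned to ecl3, a divergent coding gene upstream known for its effect on chronological lifespan. Over the whole of ecl3 the reads numbered 193 in nmt1-SEB1 against 83 in wild type. Over the tgp1 window there were 146 antisense reads in nmt1-SEB1 against 43 in wild type, a ratio of 2.75 (1.95 to 3.96) and a log2 ratio of 1.46, which fell under the 2-fold call with TMM (0.78) and median of ratios (0.67). These included 87 reads in nmt1-SEB1 against 22 in wild type of SPBC1271.10C, a transporter gene that converges on tgp1 and overlaps its end. These are only the reads of that gene inside the tgp1 window: the whole gene had fewer in nmt1-SEB1, 172 against 336 in wild type. A cluster past the annotated end of that gene, at 350532, had 58 in nmt1-SEB1 against 2 in wild type. It reached 5% of the window's opposite-strand reads in nmt1-SEB1 alone, so its direction was partly set by the choice of clusters. The lncRNA ncRNA.1343, which leaves the nc-tgp1 start in the other direction, had 46 reads in the window in nmt1-SEB1 against 20 in wild type.

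Other genes of phosphate uptake and storage were taken from a list of 15 names, of which 11 were found and tested. Of these, 2 were called higher, 4 lower and 5 neither, where 26.0% of coding genes were higher and 17.0% lower. Their median log2 ratio was -0.38, and that of coding genes 0.20. With TMM or median of ratios 1 was higher and 6 were lower. The 4 lower ones were vtc4, the polyphosphate synthase subunit of the vacuolar VTC complex (61 reads in nmt1-SEB1 against 168 in wild type, log2 ratio -1.77), pho842, an inorganic phosphate transporter (77 in nmt1-SEB1 against 205 in wild type, log2 ratio -1.72), pho7, which encodes the activator named above (17 in nmt1-SEB1 against 30 in wild type, log2 ratio -1.12), and the annotated phosphatase gene SPBPB2B2.06C (53 in nmt1-SEB1 against 89 in wild type, log2 ratio -1.05). Higher were pho2, a phosphatase gene (245 reads in nmt1-SEB1 against 24 in wild type, log2 ratio 3.05), and csk1, a kinase gene (161 in nmt1-SEB1 against 47 in wild type, log2 ratio 1.47). Of those not called, vtc2, another VTC subunit, had 493 reads in nmt1-SEB1 against 520 in wild type, and gde1, a glycerophosphodiesterase gene, had 226 in nmt1-SEB1 against 133 in wild type. The ubiquitin ligase gene pqr1 had 130 reads in nmt1-SEB1 against 120 in wild type, and the thiamine-repressible acid phosphatase gene pho4 had 80 in nmt1-SEB1 against 89 in wild type. The remaining one, plt1, a phosphate transporter gene named after its values had been seen, had 117 in nmt1-SEB1 against 51 in wild type. Of these genes 5 of 7 tested were called for a distal share at least 10 points higher, which also needs intervals that do not overlap, and 0 for a lower one. All 10 tested for their mean end moved at least 20 nt downstream. Over coding genes 63.4% were called for a higher distal share and 74.3% for a mean end further downstream.

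A second list held genes known to act on these lncRNAs, on their cleavage or on their decay. Of 29 tested, 7 were called higher, 6 lower and 16 neither, near the 26.0% higher and 17.0% lower of coding genes, with a median log2 ratio of 0.21. With TMM 5 were higher and 11 lower, and with median of ratios 3 and 12. Lower were seb1, the inositol pyrophosphate kinase gene asp1 (6 reads in nmt1-SEB1 against 29 in wild type, log2 ratio -2.58), and 4 genes of the cleavage and polyadenylation factor: pfs2 (-1.63), the poly(A) polymerase gene pla1 (-1.46), swd22 (-1.42) and the endonuclease gene ysh1 (-1.29). Other listed genes of this factor were not lower by the call: cft2 and dis2 were called higher, and iss1, ssu72 (0.57) and ppn1 (-0.092) were not called. Among the higher genes were the RNA-binding protein gene nab3 (34 reads in nmt1-SEB1 against 3 in wild type, log2 ratio 3.20), the metal-dependent phosphatase gene duf8901 (3.11), cft2 of the cleavage factor (1.75), the exosome nuclease gene rrp6 (1.73), the nuclear surveillance gene red1 (1.26) and the protein phosphatase gene dis2 (1.05). Not called, with the most reads, were the polyadenylation factor gene iss1 (376 in nmt1-SEB1 against 420 in wild type), the inositol pyrophosphatase gene siw14 (331 in nmt1-SEB1 against 224 in wild type), erh1, whose product binds Mmi1 (227 in nmt1-SEB1 against 192 in wild type), and the zinc-finger gene cps3 (244 in nmt1-SEB1 against 147 in wild type). Of this list 15 of 22 tested were called for a higher distal share and 1 for a lower one, by the same rule with intervals, where 63.4% of coding genes tested were called for a higher one.

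For each member the 2 coding genes most like it were taken by the smallest sum of the difference in log2 ratio and 0.1 times the difference in distal share change (points), over the 1616 genes that had at least 100 reads in both libraries. For pho1 these were coa4 (log2 ratio -1.52, distal share change 39.3 points) and cms1 (-1.79, 38.2 points). For pho84 they were rps2202 (-2.89, 29.8 points) and SPBC1A4.04 (-3.20, 35.0 points). For tgp1 they were rpl502 (-0.38, 64.4 points) and psr1 (-0.34, 64.6 points). Their annotated products are a respiratory complex assembly protein (coa4), a preribosome subunit (cms1), ribosomal proteins (rps2202 and rpl502), a phosphatase (psr1) and an uncharacterized protein.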

How the data were processed

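Poly(A) site-supporting reads were counted in 2 libraries, nmt1-SEB1 and wild type. The deposited values are counts of reads per genomic position and strand, as the whole numbers in the authors' files show, although the labels' protocol speaks of RPM. Bowtie2 and the build ASM294v2 are named in the submitters' processing notes. No version, read filter or molecular identifier is given in the sources used here. Genes came from the RefSeq annotation of ASM294v3. Genomic A stood at the end of 75.9 to 80.0% of positions per chromosome, strand and library. It stood 1 base further at 0.0% on the minus strand and 2.71 to 3.99% on the plus strand. Positions were therefore taken as 1-based on the nuclear chromosomes. Reads on 3 other contigs were left out.

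A read was given to the same-strand gene that holds it, to the nearest annotated 3′ end where several do, or to a gene ending up to 1000 nt upstream. Of nuclear reads, genes took 98.4% (nmt1-SEB1) and 99.7% (wild type), and RPM is scaled to these. Reads inside the coding sequence of pho84 or pho1 lie closer to the end of the overlapping lncRNA and are given by stretch instead. Ratios carry exact Clopper-Pearson 95% intervals and shares Wilson 95% intervals, for counting error only. A distal share was called at 10 points with Wilson intervals that do not overlap, among pairs with 20 or more reads in each library. Python 3.11.15, scipy 1.17.1, edgeR 4.0.16 (TMM) and DESeq2 1.42.0 (median of ratios) were used, the last 2 for scaling alone. The ratio and cluster steps were tested on simulated data. Alternatives were other scalings, assignments, cluster widths, distances, windows, read minimums and thinning. Named features were those in the windows with 20 or more reads in a library, and clusters with 5% of a window's reads. On the same strand, smaller clusters with 20 or more reads in a library were also named. From the lists came called members with up to 4 others of most reads, and each member has its 2 nearest genes. Some called list members and site sequences are not reported here. The members and lists were chosen with earlier results of these data known.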

Additional observations from a re-analysis of the deposited data

How the results depend on the processing

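No paired analysis was possible because each group has 1 library, and none could be left out. The shift of all log2 ratios under TMM (-0.68) and median of ratios (-0.79) set most of the changes. With TMM the abundance log2 ratio was -2.31 for pho1, -4.05 for pho84 and -1.04 for tgp1, and with median of ratios it was -2.42, -4.16 and -1.14. Counting up to 200 nt past the end gave -2.45 for pho1, and ignoring lncRNA annotations gave -1.46 for pho1 and -2.75 for pho84. Reads in the lncRNA gave -0.11 and -0.22 before pho1 under TMM and median of ratios, -0.00060 and -0.11 before pho84, and -1.89 and -1.99 before tgp1. The 3000 nt windows gave -3.54 and -3.65 before pho1, 0.00039 and -0.11 before pho84 and -1.89 and -1.99 before tgp1. With 1000 nt they gave 0.44 before pho1, a reversal that follows from leaving out the end of pho84, 0.82 before pho84 and -2.60 before tgp1. Antisense reads at tgp1 gave 0.78 and 0.67 under both scalings. The distal difference was 22.5 points for pho84 with clusters of 50 nt, and 15.6 points for tgp1 with that width or 15.5 with clusters chosen on wild type. Reads past the main cluster differed by 65.6 points at 100 nt and 25.3 at 300 nt for pho1, and by 10.8 at 300 nt for tgp1. Over all genes 3562 were called higher and 894 lower. Of these counts, the higher one was 1664 with a minimum of 100 reads, 2639 with TMM and 2523 with median of ratios, and the lower one 1730 with TMM and 1901 with median of ratios. In the phosphate list 1 gene was called higher under each scaling. In the list of lncRNA regulators 3 were higher with median of ratios, and 11 and 12 were lower with TMM and median of ratios. The 40 other values stayed within the counting interval of the value given, or within 1.5 times for a count, and none changed direction. At tgp1 and in nc-pho1, where a library has as few as 59 reads, only differences larger than the intervals given could be seen.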
